A study of Mus musculus with 2 samples.

Results

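Transcripts of 10 bone and cartilage lineage genes were compared between mouse embryonic fibroblasts labelled as with and without the kinase Lats2. The genes were taken as a named list, Runx1, Runx2, Runx3, Sp7, Alpl, Ibsp, Spp1, Comp, Acan and Mgp, and were found on the array by gene name. They are 10 of the 27579 genes with a probe, and they had 15 of the 41174 probes. Of the 10 genes, 9 were found under their own name with 14 probes, and Alpl was found under the older name Akp2 through the accession of its probe.

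The Runx genes encode transcription factors that share the Runt DNA-binding domain and bind DNA together with the partner CBFβ. Runx2 is required for osteoblasts to form and acts with Sp7 (osterix) to set up the bone-forming programme, whereas Runx1 and Runx3 are best known from blood and immune cells and also act in skeletal precursors. Osteoblasts then secrete a matrix with sialoproteins (Ibsp, Spp1) and raise local phosphate with alkaline phosphatase (Alpl), chondrocytes lay down aggrecan (Acan) and cartilage oligomeric matrix protein (Comp), and matrix Gla protein (Mgp) holds back calcification in cartilage and vessels. Fibroblasts from embryos are connective tissue cells that can be driven towards bone or cartilage in culture, and Lats2 is a kinase of the Hippo pathway that restrains the coactivators Yap1 and Wwtr1 (TAZ).

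Both RNAs came from embryonic fibroblasts of C57BL/6J mice, one labelled LATS2-/- and the other LATS2+/+, and neither was treated. Both kinds of cells were grown in the same serum-containing medium, with no agent that drives bone or cartilage formation named. The RNAs were hybridised together to 2 whole mouse genome arrays, with LATS2-/- RNA in the red dye Cy5 on one and in the green dye Cy3 on the other. The labels speak of a dye swap and of no separate cultures or animals. Both arrays were therefore counted as 1 RNA pair (n = 1), and no difference below has a replicate check. Passage, embryonic age and the number of embryos behind each RNA were not given in the sources used here.

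The Runx genes share a short stretch of promoter sequence, shown here because it is what the 3 genes have in common beside their protein family. The windows are from RefSeq promoters of 300 bases (build GRCm38.p6), and capitals mark ACCACA, which is the RUNX recognition motif TGTGGT read on the other strand. Each is printed 5′ to 3′ on the strand of its gene, and Spp1 is added as the other gene of the 10 whose promoter held the motif.
Runx1: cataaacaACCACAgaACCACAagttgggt
Runx2: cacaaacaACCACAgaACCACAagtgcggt
Runx3: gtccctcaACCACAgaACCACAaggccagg
Spp1: tttttttttttaACCACAaaaccagaggag
The windows lie at chr16:92826025-92826054 (minus strand) for Runx1, chr17:44814583-44814612 (minus strand) for Runx2, chr4:135120503-135120532 (plus strand) for Runx3 and chr5:104434971-104435000 (plus strand) for Spp1. The first capital is at base 29 of the transcript in Runx1 and at base 24 in Runx2, but at position -134 from the start in Runx3 and -128 in Spp1.

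In the Runx genes the motif stood in tandem. The longest stretch that a promoter of each of the 3 shared was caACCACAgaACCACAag, of 18 letters, and on either strand it occurred in 4 of 32851 mouse promoters (0.012%). These were promoters of Runx1, Runx2 and Runx3 and that of Gm16225, whose window overlaps the Runx3 promoter. Runx1 and Runx3 each have a second promoter in the table, without TGTGGT on either strand. TGTGGT on either strand was in 16.8% of all promoters and in 4 of the 11 promoters that the table held for 7 of the 10 genes. The letters GGAATG, recognised by the TEAD factors that Yap1 and Wwtr1 work through, were on either strand in 14.7% of all promoters and in 2 of the 11, the second Runx1 promoter and that of Acan. These are matches of letters, picked after the sequences had been seen, and binding was not measured here.

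Lats2 itself did not mark the RNAs as labelled. Of its 4 probes on chromosome 14 (build mm8 here and for all probes), 3 gave more signal with the RNA labelled KO. Their mean log2 ratios of KO over WT were 0.63, 0.56 and 0.56. These 3 lie close together, between bases 56644080 and 56645305, and the probes at 0.56 overlap, so they are not separate checks. The probe at chr14:56676512-56676571 gave less, at -0.35. The sources used here do not say which part of the gene was deleted, so a probe outside it checks nothing, and the RNAs are called by their labels throughout. The paralog Lats1 was at -0.03. As a measure of array error, the SD of a single array's log2 ratio about the mean of both was 0.132 over 40875 probes, and between 0.119 and 0.145 in bins of intensity.

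To be called, the brightest probe of a gene had to differ at least 2-fold, one way, on both arrays, with its signal well above background for the RNA that was higher. None of the 10 genes was called (0 higher and 0 lower in the RNA labelled KO), where 5.56% of the 15877 genes well above background for 1 RNA or both were called, 2.95% higher and 2.61% lower. Smaller differences of 1.33-fold to 1.91-fold stood out from array error in 5 of the 10. Runx1 and Mgp were higher in the RNA labelled KO, and Runx2, Runx3 and Comp were lower, each by more than 2 SD of a single array. The share of all genes past that cut was not counted, so the count of 5 says nothing about the list as a set. For each of the 5, between 3.56% (Runx3) and 14.8% (Runx2) of the 15877 genes lay at least as far in the same direction. The median log2 ratio was 0.01 over the 10 genes and -0.11 over the 7 well above background, beside 0.00 over all 15877. In a fibroblast population a difference in RNA can come from fewer cells of a type or from less RNA per cell, and these cannot be told apart.

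**Figure D1:**
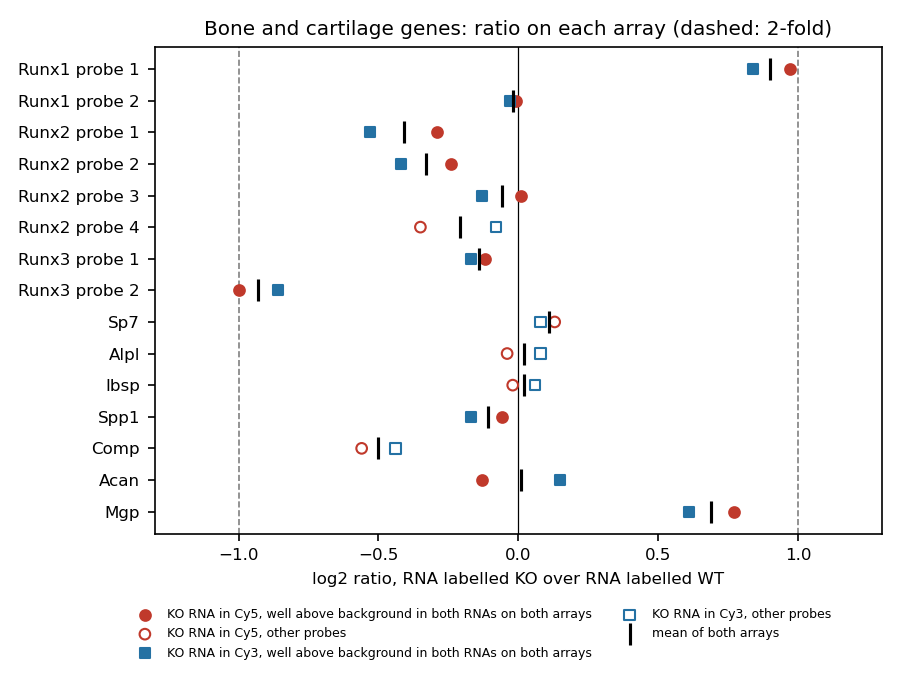
Log2 ratio of the RNA labelled KO over the RNA labelled WT (x axis) for each of the 15 probes of the 10 genes (y axis), with circles for the array with KO in Cy5, squares for the array with KO in Cy3 and a bar for their mean. Filled symbols are probes well above background in both RNAs on both arrays. The first Runx1 probe and Mgp lie right of 0 on both arrays, the second Runx3 probe, the first Runx2 probes and Comp lie left, and Acan has 1 symbol on each side.

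Runx1 had the highest ratio of the 10 here, in 1 of its 2 probes. At the brighter probe (chr16:92493027-92493086) the normalised signal was 600.3 units for KO against 307.5 for WT on the first array and 539.9 against 302.0 with the dyes exchanged. Both KO values were above both WT values. The log2 ratios were 0.97 and 0.84, a mean of 0.90, and the RNA labelled KO was at 187% of WT. Of the 15877 genes, 3.92% had a mean ratio at least as high. The other Runx1 probe, whose ends lie at chr16:92502617-92533069, gave 153 units for KO and 154 for WT with KO in Cy5, and 168 and 172 with the dyes exchanged. Its mean log2 ratio was -0.02, so the difference was seen with 1 probe only and the mean over both probes was 0.44.

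Runx2, the osteoblast factor, had 4 probes, and the brightest was spotted 10 times on each array. At that probe (chr17:44067120-44067179) signals were 1733 units for KO and 2126 for WT with KO in Cy5, and 1545 and 2229 with KO in Cy3. The KO values lay below the WT values in both dye orientations. The log2 ratios were -0.29 and -0.53 with a mean of -0.41, or 75.2% of WT. The repeated spots spread far less, with an SD of 0.0326 and 0.0192 within the arrays, than the 2 arrays differed from each other.

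A neighbouring Runx2 probe (chr17:44067258-44067317) gave -0.24 and -0.42, close to the first. A probe further along the chromosome (chr17:44071031-44071090) gave 0.01 and -0.13, a mean of -0.06, within the error of an array. The fourth (chr17:44277234-44277293) was not well above background in either RNA on either array. The 2 neighbouring probes thus gave like ratios, the third gave none beyond array error, and the mean over all 4 was -0.25.

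Runx3 had the lowest ratio of the 10 with this background handling, again in 1 of 2 probes. Its brighter probe (chr4:134448766-134448825) gave 79.1 units for KO against 158 for WT with KO in Cy5 and 97.8 against 178 with KO in Cy3. Both WT values were above both KO values. Ratios were -1.0 and -0.86 on the log2 scale, with a mean of -0.93, and the RNA labelled KO was at 52.5% of WT. Of the 15877 genes, 3.56% had a mean ratio at least as low. The other probe, (chr4:134448120-134448179), gave 96.8 units for KO and 105.1 for WT with KO in Cy5, and 101 and 114 with the dyes exchanged. Its mean log2 ratio was -0.14, close to the SD of a single array (0.119) at that intensity. Both probes were dim, which makes their ratios depend on how background was handled.

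The 3 Runx genes therefore did not move as a group. Runx1 was higher in the RNA labelled KO, and Runx2 and Runx3 were lower, while for each gene another probe well above background gave a ratio of 0.14 or less in size. Which transcripts each probe reads was not analysed here.

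**Figure D2:**
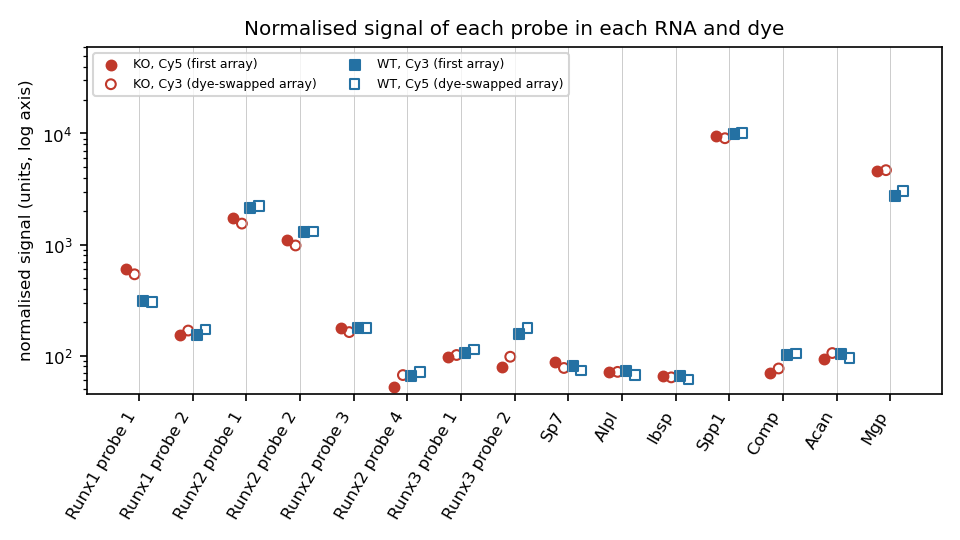
Normalised signal in arbitrary units (y axis, log scale) of the 15 probes (x axis) in the RNA labelled KO (circles) and the RNA labelled WT (squares), filled for the first array and open for the dye-swapped array. Spp1, Mgp and the first Runx2 probes lie far above the dimmest probes, and the circles and squares are apart for the first Runx1 probe, the second Runx3 probe, Comp and Mgp. Signals of different probes are not comparable as transcript levels.

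Sp7, which acts beside Runx2 in bone formation, was at the edge of detection. Its probe (chr15:102185295-102185354) gave 88.6 units for KO and 80.8 for WT with KO in Cy5, and 77.5 and 73.4 with the dyes exchanged. It stood well above background with KO on 1 of the 2 arrays and with WT on neither. The log2 ratios were 0.13 and 0.08, within the error of an array (0.126), so no direction is read from them.

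The mineralisation genes were split between a bright one and ones near background. Alpl, the alkaline phosphatase that frees phosphate for mineral (chr4:137013819-137013878), gave 71.1 units for KO and 73.0 for WT with KO in Cy5, and 71.5 and 67.4 with the dyes exchanged. It was well above background with KO on 1 of the 2 arrays and with WT on neither, and the log2 ratios of -0.04 and 0.08 had opposite signs. Ibsp, bone sialoprotein (chr5:104551214-104551273), was not well above background in any RNA on any array. Its signals were between 61.0 and 66.3 units, and no ratio is read from them.

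Spp1 (osteopontin) is a secreted phosphoprotein that binds mineral and integrins and that fibroblasts and macrophages also make. Its probe (chr5:104681071-104681130), spotted 10 times on each array, gave 9544 units for KO and 9960 for WT with KO in Cy5, and 9062 and 10168 with the dyes exchanged. Its log2 ratios were -0.06 and -0.17, a mean of -0.11 or 92.4% of WT, which is within the error of a single array at that intensity (0.145). Spp1 was thus strongly detected in both RNAs, with a difference that these arrays do not resolve. Of the 15877 genes, 36.3% had a ratio at least as low.

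Mgp, a vitamin K-dependent inhibitor of calcification, was bright on all channels and higher in the RNA labelled KO. Its probe (chr6:136836800-136836859) gave 4623 units for KO against 2720 for WT with KO in Cy5 and 4674 against 3054 with KO in Cy3. Both KO values were above both WT values. On the log2 scale the ratios were 0.77 and 0.61, with a mean of 0.69, and the RNA labelled KO was at 161% of WT. The Mgp ratio was between 0.61 and 0.77 under every alternative tried, both ends being the single arrays, and 6.45% of the 15877 genes had a ratio at least as high.

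Among the cartilage matrix genes, Comp was lower in the RNA labelled KO and Acan was not resolved. Comp encodes a pentameric protein of cartilage and tendon matrix, and its probe has its ends at chr8:73310782-73310915. Signals were 69.3 units for KO and 102 for WT with KO in Cy5, and 76.7 and 104 with the dyes exchanged. The log2 ratios were -0.56 and -0.44, a mean of -0.50 or 70.7% of WT, and 11.4% of the 15877 genes had a ratio at least as low. Comp was well above background with WT on both arrays and with KO on 1 of the 2. Before normalisation the KO spots read 60.9 over a local background of 42 and 40.0 over 29, and the WT spots 64.6 over 31 and 97.4 over 33, so the KO signal rests on few units above background.

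Acan, the large proteoglycan of cartilage (chr7:78988368-78988428), was well above background in both RNAs on both arrays but dim. It gave 94.1 units for KO and 103 for WT with KO in Cy5, and 106 and 95.3 with the dyes exchanged. The log2 ratios of -0.13 and 0.15 had opposite signs, so the order of the RNAs changed with the dye. The mean of 0.01 carries no direction.

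The size of several differences moved with the processing. The values above include an offset of 50 units, which draws ratios of dim probes towards 0. With only the offset changed, to 10, 1 of the 10 genes was called (Runx3, at a mean of -1.46), where 7.70% of the 15877 genes were, and Runx1 and Comp came to 1.02 and -0.99 without passing. With no background subtraction 1 was called (Runx3, at -1.04), where 6.50% of the genes were. The scanner software's own ratio (Feature Extraction) uses its own background correction and its own dye normalisation in place of the steps used here, and the part of each was not tested. With that ratio, 3 of the 10 genes passed the call, where 11.4% of the 15877 genes did. Runx1 was called higher (5.93% of those genes were), at 1.08 and 1.05 on the single arrays. Runx3 was called lower, at -1.95 and -1.82, and Comp was called lower, at -1.71 and -3.09, where 5.45% of those genes were. The bright genes moved little, with Mgp at a mean of 0.73, Runx2 at -0.43 and Spp1 at -0.12. Sp7 reached 0.57, still without being well above background with WT. The second Runx1 probe stayed near 0 (-0.07) and the first Runx3 probe came to -0.41, so the probes of each gene differed under that ratio as well.

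**Figure D3:**
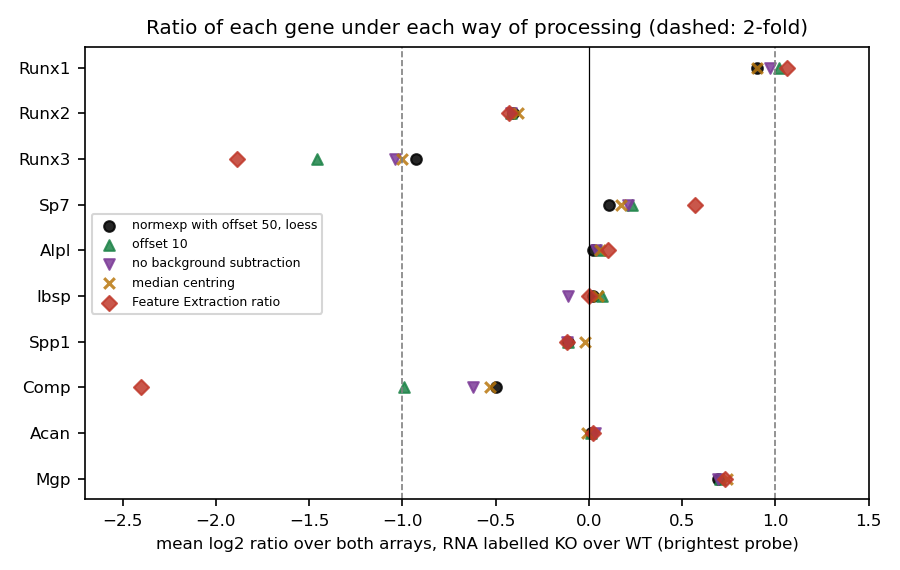
Mean log2 ratio over both arrays (x axis, KO over WT) of the brightest probe of each of the 10 genes (y axis) under 5 ways of processing, marked by symbol. Mgp, Runx2 and Spp1 hold nearly the same place in all, while Runx3 spreads from -0.93 to -1.89 and Comp from -0.50 to -2.40.

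The wider bone and cartilage programme was read from 4 lists with 74 genes, of which 71 had a probe and 48 stood well above background for 1 RNA or both. By the same call, 1 was higher and 4 were lower in the RNA labelled KO (10.4% of the 48, beside 5.56% of all genes). The higher gene (Itga9) and 1 of the lower genes (Itgb3) came from the list of receptors that bind Spp1 or Ibsp, with 6 genes measured. The lists were chosen with earlier results known, so the share of 10.4% says nothing about bone and cartilage genes as a set. Of the 14 partners of RUNX factors and regulators of osteoblasts, 12 were well above background and 0 were called, with a median of -0.31 over the 12. Cbfb, the shared DNA-binding partner of the Runx proteins, was at -0.48. Twist1, which restrains Runx2, was at -0.36. The coactivators under Lats control were at 0.54 (Yap1) and 0.05 (Wwtr1), 2 genes picked after their values were seen.

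Among 24 measured genes of osteoblast matrix and mineralisation, 18 were well above background, 0 were higher and 2 were lower, with a median of -0.20 over the 18. Tnfrsf11b (osteoprotegerin), the decoy receptor with which osteoblasts hold back osteoclasts, fell 5.95-fold, from 10807 units for WT to 1816 for KO. Omd (osteomodulin), a small proteoglycan of bone matrix, fell 2.48-fold. Both fell on each array, Tnfrsf11b at -2.37 and -2.78 and Omd at -1.24 and -1.38. Col1a1, the main collagen of bone and of fibroblasts, was at -0.56. The osteocalcin gene Bglap1, a late osteoblast product, was not well above background on both arrays with either RNA, and Bglap2 had no probe by that name.

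Of 27 measured chondrocyte genes, 12 were well above background, 0 were higher and 1 was lower, with a median of -0.17 over the 12. The lower gene was Col11a1, a chain of the fibrillar collagen XI of cartilage, which fell 4.85-fold at its brightest probe (-2.15 and -2.41), while its other probes reached -1.11. Sox9, the factor that sets the cartilage fate, was at 0.46, with its probes between 0.07 and 0.46. Col2a1, the main cartilage collagen, was at -0.33, with its probes between -0.33 and 0.27. The probes of Sox9 and Col2a1 thus give no single size.

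Among receptors that bind Spp1 or Ibsp, 6 of 7 had a probe and all 6 were well above background. Itga9, an integrin chain that binds osteopontin, rose 2.29-fold, and Itgb3, a chain of the vitronectin receptor that binds both sialoproteins, fell 3.49-fold at its brightest probe while its other probe was at -0.15. The 1 probe of Itga9 was dim with WT (88.1 units). Its mean log2 ratio was 1.2 here and 2.51 with Feature Extraction's ratio, so its size depends on the processing. The median of the 6 was 0.02.

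**Figure D4:**
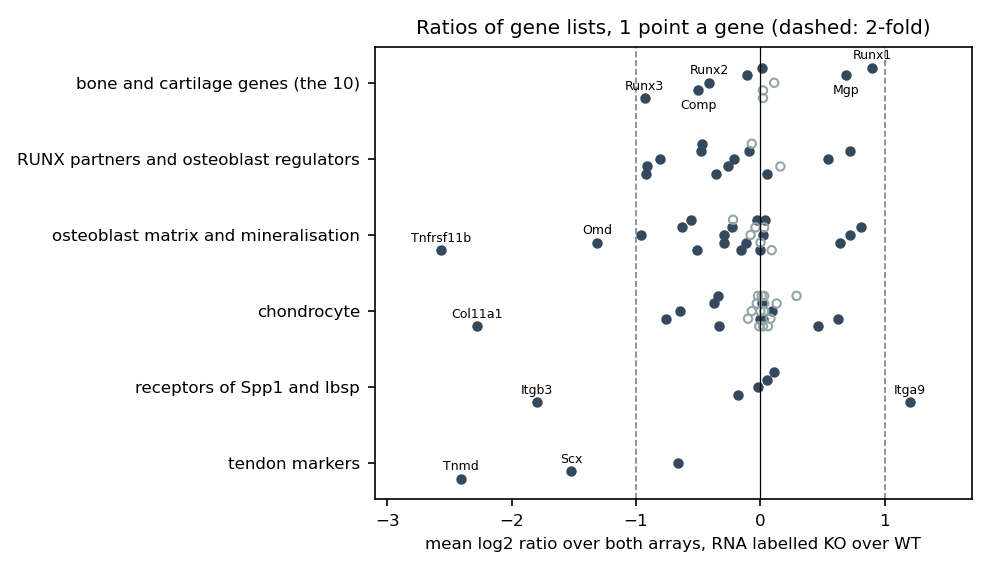
Mean log2 ratio of KO over WT (x axis), 1 point a gene by its brightest probe, for the 10 bone and cartilage genes, the 4 wider lists and tendon markers (y axis, with points spread vertically for legibility only). Filled points are well above background on both arrays for 1 RNA or both, and names are given for called genes and for the 5 of the 10 beyond array error. The called genes lie outside the dashed 2-fold lines, and none of the 10 does.

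Markers of other cells were set beside these values. Of 10 measured fibroblast markers, 10 were well above background with WT and 9 with KO, and 0 were called, with summed signals of 115508 to 123283 units for KO and 138147 to 144988 for WT. The sums join members that went both ways and rest much on the brightest, Thy1 (44232 units for KO and 60525 for WT). The other Thy1 probe was at 0.13. Fn1 went the other way (19920 units for KO and 10719 for WT). Of 3 tendon markers, 2 were lower, Tnmd at -2.41 and Scx at -1.52, and Mkx was at -0.66. Their summed signal was 1093 to 1151 units for KO and 2325 to 2589 for WT. Tendon cells also make Comp, and the part of tendon-like cells in its ratio was not tested. Of 8 macrophage markers, 4 were well above background, with sums of 1895 to 1909 units for KO and 1400.2 to 1409 for WT, while the defining Ptprc and Emr1 were not. Lyz2 was called higher at its brightest probe, on which the higher KO sum rests (1284.8 units for KO and 597.5 for WT). The other Lyz2 probe was at 0.13. Cd14 was called lower. Macrophages also make Spp1, and their part in its ratio was not tested.

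None of 5 endothelial markers was well above background on both arrays, with sums of 326 to 350.0 units for KO and 323 to 343 for WT. T cells also use Runx1 and Runx3, and of 5 T cell markers 1 (Cd3e) was well above background, with sums of 368 to 401 units for KO and 373 to 393 for WT. Among 5 smooth muscle markers 4 were well above background, and Cnn1 was called lower at -2.11. Acta2 was at 0.79 at its brightest probe, with its probes between -0.64 and 0.93, Tagln at 0.13 and Myh11 at -0.46. The sums were 47545 to 48839 units for KO and 38845 to 40637 for WT. The higher KO sum rests mainly on that Acta2 probe (23546 units for KO and 13575 for WT). Vascular smooth muscle also makes Mgp, and its part in the Mgp ratio was not tested.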

How the data were processed

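Total RNA was labelled with Cy3 or Cy5 and hybridised in both dye orientations to 2 two-colour arrays. Per the file headers and labels, the authors read them with Agilent Feature Extraction 10.5.1.1 and deposited mean signal and local background as intensity in arbitrary units, with outlier and detection flags and Feature Extraction's log10 ratio of Cy5 over Cy3. The authors also deposited a log2 table, which held the ratio of KO over WT for both arrays (correlation with Feature Extraction's ratio 0.9999 and 0.9996, column medians -0.0177 and 0.0367). Its scale and direction were found by that comparison.

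R 4.3.3 with limma 3.58.1 served for background correction (normexp with an offset of 50) and loess within arrays. Control spots (1639 of 45018) and outlier spots (390 and 378) were left out, and spots of a probe averaged. Normalised signals are channel values after loess and Aquantile. The dye-swapped array was turned and both averaged. Median raw signals were 96.8 (KO) and 60.1 (WT) with KO in Cy5 and 58.2 and 98.5 with KO in Cy3, with 0 saturated spots; the number of arrays limits the precision.

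A call needed a log2 ratio of at least 1 in size on each array and Feature Extraction's flag in at least 0.5 of a probe's spots. The brightest probe stood for a gene. With 1 RNA pair no test of genotype was made. The study's methods asked for 2-fold with a t-test p under 0.05, and that t-test and limma on both arrays were run as alternatives that compare the RNAs hybridised. The methods name another deposit for the microarrays and a legend speaks of several independent cell lines, so whether they describe these 2 arrays was not settled. The 10 genes, the lists and the markers were chosen with earlier results of these data known. Named were all 10 genes, Lats2, 8 list genes (1 of them is not reported here) and up to 4 called genes per list and direction; Yap1, Wwtr1, Lats1 and the markers named were added. Names are those of the files, or of a RefSeq table (GRCm38.p6) through accessions (Alpl, listed as Akp2, Pth1r, Ucma and Lyz2). Coordinates are the files' (mm8); exon and UTR positions were not analysed here. In a simulated dye swap of 40875 probes, 90.7% of 150 probes changed over 2-fold were called. Those probes were well above background and set well past 2-fold, and their estimated ratios had a median of 0.889 of the set ones. Unchanged probes carried only noise near the array error, so the 0 false calls followed from the settings. The simulation held no effect of culture or animal, and it does not cover dim genes or changes near 2-fold.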

Additional observations from a re-analysis of the deposited data

How the results depend on the processing

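With Feature Extraction's ratio, and equally with the deposited log2 table, 1 of the 10 genes was called higher (Runx1) and 2 lower (Runx3 and Comp), and the wider lists had 4 genes higher (Smpd3, Pth1r, Col11a2 and Itga9) and 6 lower, Matn4 and Cilp2 being added, where 941 and 866 of 15877 genes were called. An offset of 10 gave 1 of the 10 lower (Runx3), and 2 list genes higher and 5 lower, where 653 and 569 of all genes were called. No background subtraction gave 1 of the 10 lower (Runx3), and 2 list genes higher and 4 lower, where 544 and 488 were called. The methods' t-test left 0 list genes higher and 4 lower, where 524 and 443 of the 1260 probes past 2-fold passed. After Benjamini-Hochberg it left 0 higher and 0 lower in the lists and 0 of those 1260 probes, so with 2 arrays it says nothing about the lists. Among the 10 genes it gave 2 with an unadjusted p under 0.05 (limma, adjusted, 5), neither of them past 2-fold. The share of all genes under these p cuts alone was not counted. Leaving out 1 array moved the list genes called lower from 4 to between 6 and 7. Median centring in place of loess moved the higher share of all calls from 53.1% to 64.4%.

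Of 90 recomputed ratios of the 10 genes, 75 stayed within the array error. Another 12 moved away from 0 and 3 towards it, the latter being the means over all probes of Runx1 (0.44), Runx2 (-0.25) and Runx3 (-0.54). The sign changed in 5, all of Acan, Alpl or Ibsp, whose ratios were at most 0.02 in size. The 90 are not separate checks, because the deposited table repeats Feature Extraction's ratio. A mean over all probes also returns the same value for a gene with 1 probe, and keeping outlier spots changed none of the ratios as rounded. The count of 75 is therefore no measure of how firm the ratios are. No paired analysis was possible because both arrays hold 1 RNA pair and no test compares groups. The median over the 10 genes stayed within array error under every alternative. Signal over background limits Comp, Runx3, Sp7, Alpl and Ibsp.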
